A study of Homo sapiens with 12 samples.

Results

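The response to USP15 depletion was compared between KBM7 and K562, a pair of cell lines derived from chronic myelogenous leukemia. KBM7 is a nearly haploid line from a blast crisis, and K562 is a line with erythroid features that is widely used in leukemia research. A SMARTpool of siRNAs that target USP15 (siUSP15), or a control pool without a target (siCtrl), was transfected into each line, and RNA was collected after 72 h. KBM7 had been kept in IMDM and K562 in RPMI. There were 2 libraries per siRNA in KBM7 and 4 per siRNA in K562, 12 in all, and the K562 libraries form 2 sets, replicates 1 and 2 (set 1) and replicates 3 and 4 (set 2). The deposited tables of raw counts list 26226 genes for KBM7 and 28328 for K562. The 23238 genes listed in both, of 31316 listed in either, were joined by Ensembl gene identifier, and 15833 of them had enough counts to be tested. Cell line, deposited table and culture medium changed together and cannot be told apart. With 1 siRNA pool against 1 control pool, the loss of USP15 cannot be told apart from any other effect of the pool.

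USP15 is a deubiquitinating enzyme, a protease that removes ubiquitin from other proteins and so changes their stability or activity. Its known substrates include SMAD proteins and the type I receptor of TGF-β signaling, TRIM25 in antiviral signaling and MDM2. USP4 and USP11 are its closest relatives among the ubiquitin-specific proteases. Interferon-response genes encode antiviral and antigen-presenting proteins and are switched on when interferons bind their receptors. The integrated stress response is a program of ATF4 and its partners that is turned on when amino acids run short or proteins misfold, and it raises the enzymes that make, import and charge amino acids.

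Total counts were 23450607 to 29441118 per library in KBM7 and 23020401 to 43566543 in K562, and the joined genes held 99.3% to 99.9% of them. Values are given as CPM, which are counts scaled to a common library total with TMM factors. Each response is the log2 fold change of siUSP15 against siCtrl in 1 edgeR fit of all 12 libraries with the K562 sets as a block, and the difference between the lines is the response in KBM7 minus the response in K562. Adjusted p-values are from edgeR's quasi-likelihood test, 2-sided, with Benjamini-Hochberg adjustment over the 15833 genes, and a gene passed when its adjusted p was under 0.05. That the replicates were grown apart is stated in no source, so the p-values cover the spread among these libraries alone, which may be technical. The first principal component of the K562 libraries held 53.7% of their variance and separated the sets. The erythroid markers HBG1, HBG2, GATA1, TAL1 and KLF1 summed to 173 to 281 CPM in KBM7 and to 2263 to 3002 CPM in K562. Of the myeloid markers, ELANE was listed in the KBM7 table only, and the other 4 summed to 207 to 241 CPM in KBM7 and to 26.1 to 57.0 CPM in K562. Markers of T and B lymphocytes summed to at most 20.9 CPM in any library. Epithelial and stromal markers summed to 1.33 to 2.15 CPM in KBM7 and to 208 to 245 CPM in K562.

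The targeted transcript, USP15, fell in both lines, and its response was not shown to differ between them. USP15 (ENSG00000135655, chromosome 12 of hg38, 62260338 to 62417431) stood at 198 and 203 CPM with siCtrl and 107 and 108 CPM with siUSP15 in KBM7. In K562 it stood at 277 and 283 CPM with siCtrl and 119 and 139.7 CPM with siUSP15 in set 1 and at 358 and 342 CPM with siCtrl and 199 and 202 CPM with siUSP15 in set 2. Every siUSP15 library lay below every siCtrl library of its line. In KBM7 the response was -0.90 on the log2 scale with a standard error of 0.0809 (adjusted p = 4.23e-07), and in K562 it was -0.96 with a standard error of 0.0564 (adjusted p = 5.21e-08). The difference of 0.054 did not pass (adjusted p = 0.756), and its 95% interval was -0.15 to 0.26. An exact permutation test, 2-sided, in which siRNA labels were exchanged within KBM7 and within each K562 set, gave a difference of 0.0598 with p = 0.852, where 0.00926 is the smallest p that its 216 arrangements allow. In bulk RNA, fewer cells with a transcript and less transcript per cell cannot be told apart. USP4 stood at 52.7 and 55.4 CPM with siCtrl and 56.99 and 58.4 CPM with siUSP15 in KBM7, and in K562 at 47.1 and 45.7 CPM with siCtrl and 37.2 and 35.8 CPM with siUSP15 in set 1 and at 36.7 and 37.6 CPM with siCtrl and 32.9 and 34.6 CPM with siUSP15 in set 2. It fell in K562 by 0.25 on the log2 scale (adjusted p = 0.00284) while its KBM7 response of 0.094 did not pass (adjusted p = 0.346). The difference of 0.34 passed (adjusted p = 0.00881), a call that was lost without KBM7 siCtrl replicate 1 (adjusted p 0.0648). With set 2 alone as the K562 libraries, neither the USP4 difference of 0.23 (adjusted p = 0.0621) nor its K562 response of -0.13 (adjusted p = 0.307) passed. USP11 passed in neither line, and its difference was 0.12 (adjusted p = 0.347, 95% interval -0.049 to 0.28). With set 2 alone the USP11 difference passed, at 0.23 (adjusted p = 0.0349).

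Most genes that responded in either line did not pass in the other, and of those that passed in both, 60.2% moved the same way. In KBM7, 1526 genes rose (9.64% of those tested) and 1777 fell (11.2%), and in K562, 1104 rose (6.97%) and 1472 fell (9.30%). The 742 genes that passed in both are 22.5% of the KBM7 calls and 28.8% of the K562 calls. Of these, 447 moved alike, 150 higher (0.947%) and 297 lower (1.88%) with siUSP15 in both lines. The other 295 moved oppositely, 159 higher in KBM7 and lower in K562 (1.00%) and 136 lower in KBM7 and higher in K562 (0.859%). The difference between the lines passed for 2529 genes, 1257 with the higher response in KBM7 (7.94%) and 1272 with the lower (8.03%). The difference shares its libraries with both responses. All 295 opposite genes, by their definition, and 77 of the 447 alike genes are among these 2529. Of these 77 alike genes, 73 had the larger response in KBM7 and 4 in K562. For 316 of the 447 alike genes (70.7%), against 7381 of all tested genes (46.6%), the 95% interval of the difference lay within 0.5 of 0 on the log2 scale. The alike genes were chosen by calls of 1 sign in the same libraries. That choice favors narrow intervals near 0, so the contrast does not show that the lines respond equally. Across 10238 genes with at least 1 log2 CPM in each line, the log2 fold changes of KBM7 and K562 had a Pearson correlation of 0.084 and shared a sign in 50.9%, as a description over genes, which share libraries and are not replicates. Between the K562 sets this correlation was 0.412.

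These counts rested on the block and on a few libraries. Without the block, 577 genes passed in KBM7, 4 in K562 and 268 in the difference, and 1 gene was alike. With the replicate number within each line as the block in place of the sets, 1687 genes passed in K562, 269 were alike and 162 were opposite. Responses were smaller in set 2 of K562 than in set 1, with a median absolute log2 fold change of 0.096 against 0.178 over all tested genes. With set 2 alone as the K562 libraries, 253 genes passed in K562, 82 were alike and 54 opposite, and with set 1 alone these were 4670, 920 and 666. The alike count was 241, 225 and 229 without KBM7 siCtrl replicate 1, KBM7 siCtrl replicate 2 or KBM7 siUSP15 replicate 1, and 280, 265 and 281 without K562 siCtrl replicate 1, K562 siCtrl replicate 2 or K562 siUSP15 replicate 1. The opposite count under the same omissions was 167, 139, 168, 165, 139 and 177. Of the alike genes, 149 of the 150 higher and 283 of the 297 lower had the same sign in each K562 set, and of the opposite genes 155 of 159 and 136 of 136 did. These genes were chosen by a K562 call that rests on both sets, which largely fixes this agreement in advance. Across the 10238 genes with at least 1 log2 CPM in each line, the sets shared a sign in 60.1%.

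**Figure D1:**
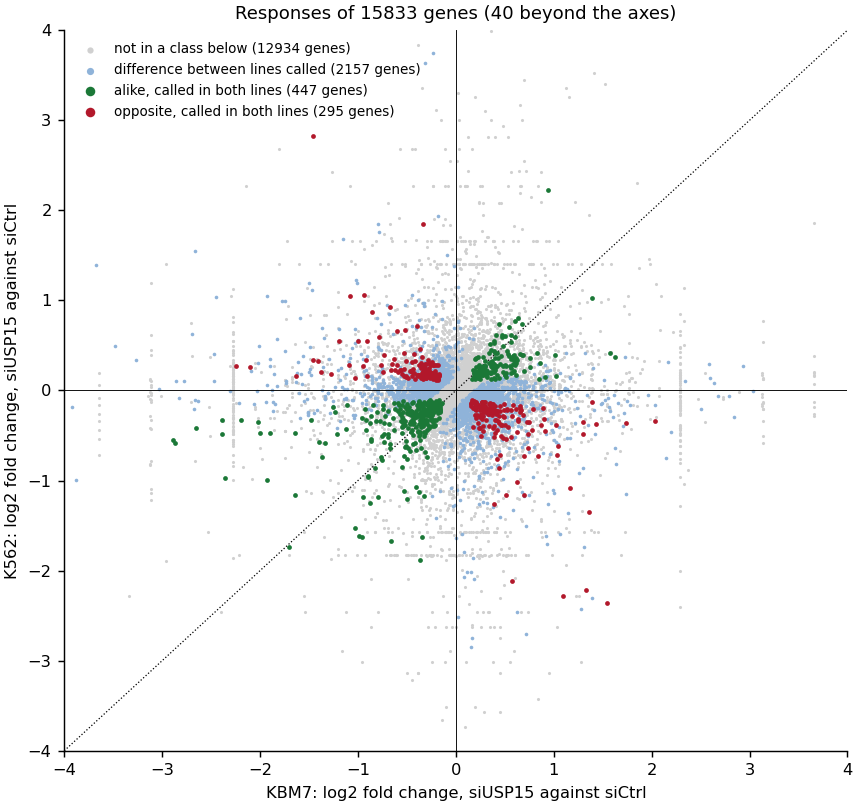
Each point is 1 gene, with its KBM7 response on the horizontal axis and its K562 response on the vertical axis, both as log2 fold changes of siUSP15 against siCtrl, for the 15833 tested genes, 40 of which lie beyond the axes and are not drawn. Colors mark the 447 genes that moved alike, the 295 that moved oppositely and 2157 further genes whose difference between the lines passed, and the cloud of the remaining 12934 genes is centred on 0 in both lines.

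Genes that rose alike included interferon-response genes and zinc finger genes. The 6 named here have at least 1 log2 CPM in each line, no overlap between the siRNAs in KBM7 or within either K562 set, and the largest smaller response. SAMD9, an interferon-induced antiviral protein, stood at 191 and 176 CPM with siCtrl and 288 and 281 CPM with siUSP15 in KBM7. In K562 it stood at 14.96 and 16.1 CPM with siCtrl and 33.5 and 29.3 CPM with siUSP15 in set 1 and at 16.2 and 14.3 CPM with siCtrl and 22.5 and 23.4 CPM with siUSP15 in set 2, so that every siUSP15 library lay above every siCtrl library of its line. Its log2 fold change was 0.63 in KBM7 (adjusted p = 2.26e-05) and 0.81 in K562 (adjusted p = 1.54e-05), and the difference of -0.17 did not pass (95% interval -0.41 to 0.062). With set 1 alone the difference of SAMD9 passed, at -0.37 (adjusted p = 0.00735), and with set 2 alone it was 0.036 (adjusted p = 0.859). TRIM26, a ubiquitin ligase of the tripartite motif family encoded in the major histocompatibility complex, stood at 33.6 and 31.6 CPM with siCtrl and 50.3 and 45.7 CPM with siUSP15 in KBM7, and in K562 at 1.17 and 1.199 CPM with siCtrl and 2.28 and 2.04 CPM with siUSP15 in set 1 and at 2.4 and 2.19 CPM with siCtrl and 3.13 and 2.62 CPM with siUSP15 in set 2. It rose by 0.56 in KBM7 and by 0.54 in K562 (adjusted p = 0.0127), with the K562 call lost without K562 siCtrl replicates 1 or 2 (adjusted p 0.0549 and 0.0572). MT2A, a metallothionein that binds zinc and copper, stood at 83.8 and 76.8 CPM with siCtrl and 127 and 106 CPM with siUSP15 in KBM7, and in K562 at 1.39 and 1.499 CPM with siCtrl and 3.81 and 2.85 CPM with siUSP15 in set 1 and at 2.16 and 1.75 CPM with siCtrl and 2.23 and 2.36 CPM with siUSP15 in set 2. The K562 change lay mainly in set 1, with a log2 fold change of 1.15 there and 0.23 in set 2, and its call (adjusted p = 0.0177) was lost without K562 siCtrl replicates 1 or 2 or K562 siUSP15 replicate 1 (adjusted p 0.0585 to 0.0904). ZNF136 and ZNF268 are zinc finger genes of the KRAB kind on chromosome 19. ZNF136 rose by 0.57 in KBM7 (adjusted p = 0.0035) and by 0.62 in K562 (adjusted p = 0.000542). ZNF268 rose by 0.51 in KBM7 (adjusted p = 0.00838), a call lost without KBM7 siCtrl replicate 2 or KBM7 siUSP15 replicate 2 (adjusted p 0.108 and 0.0773), and by 0.61 in K562 (adjusted p = 0.000888). With set 1 alone the difference of ZNF268 passed, at -0.455 (adjusted p = 0.00983), and with set 2 alone it was 0.20 (adjusted p = 0.276). The remaining gene, BX322557.10, rose by 0.60 and 0.60, with the KBM7 call lost without KBM7 siCtrl replicate 2 or KBM7 siUSP15 replicate 2 (adjusted p 0.131 and 0.0934).

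BST2, or tetherin, which holds budding viruses at the cell surface, rose in both lines but by different amounts. It stood at 90.7 and 87.5 CPM with siCtrl and 169 and 165 CPM with siUSP15 in KBM7, and in K562 at 87.6 and 84.7 CPM with siCtrl and 94.4 and 88.95 CPM with siUSP15 in set 1 and at 59.1 and 61.8 CPM with siCtrl and 71.2 and 69.3 CPM with siUSP15 in set 2. The siUSP15 libraries lay above the siCtrl libraries of the same line and set throughout. The log2 fold change was 0.91 in KBM7 (adjusted p = 5.23e-09) and 0.15 in K562 (adjusted p = 0.018), and the difference of 0.76 passed (adjusted p = 1.4e-06). The K562 call was lost without K562 siCtrl replicates 2 or 3 or K562 siUSP15 replicates 1 or 3 (adjusted p 0.0533 to 0.0611). The promoters of SAMD9 and BST2 are shown because both carry the interferon-stimulated response element, the site through which type I interferons act, which was searched as GAAA, any 2 bases and GAAA again. They are RefSeq windows of GRCh38.p14 from 250 bases before to 50 bases after the start of the gene, read 5′ to 3′ on the gene's strand, with the motif in capitals. The match begins 136 bases before the start in SAMD9 (minus strand, chr7:93117930-93118229), and 2 overlapping matches begin 130 and 124 bases before it in BST2 (minus strand, chr19:17405581-17405880).
SAMD9: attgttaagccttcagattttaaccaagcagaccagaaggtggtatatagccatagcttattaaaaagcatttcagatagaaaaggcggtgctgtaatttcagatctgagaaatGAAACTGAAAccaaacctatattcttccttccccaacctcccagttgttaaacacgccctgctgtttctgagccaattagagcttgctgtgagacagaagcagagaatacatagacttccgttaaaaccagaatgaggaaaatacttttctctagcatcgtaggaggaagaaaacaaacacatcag
BST2: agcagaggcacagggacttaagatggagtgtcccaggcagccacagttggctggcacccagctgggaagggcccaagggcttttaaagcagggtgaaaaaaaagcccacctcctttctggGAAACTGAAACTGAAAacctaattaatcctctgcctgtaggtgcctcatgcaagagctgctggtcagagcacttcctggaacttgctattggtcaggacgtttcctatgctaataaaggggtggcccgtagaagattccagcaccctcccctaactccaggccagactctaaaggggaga
Of the 15833 tested genes, 10221 have such a window, and 422 of these (4.13%) hold the motif on either strand. Among alike genes with a window, 16 of 113 higher ones (14.2%) and 7 of 216 lower ones (3.24%) hold it. A match of letters is a description and not evidence of binding.

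Genes that fell alike included a SRC-family kinase and a catalytic subunit of PI3K. YES1, a tyrosine kinase related to SRC, stood at 104 and 109 CPM with siCtrl and 59.04 and 61.4 CPM with siUSP15 in KBM7. K562 held it at 314 and 312 CPM with siCtrl and 131 and 135 CPM with siUSP15 in set 1 and at 203 and 201 CPM with siCtrl and 143 and 147 CPM with siUSP15 in set 2. All siUSP15 libraries lay below the siCtrl libraries of their line. Its log2 fold change was -0.82 in KBM7 (adjusted p = 0.000568) and -0.86 in K562 (adjusted p = 6.24e-05), made up of -1.24 in set 1 and -0.48 in set 2. PIK3CB, the beta catalytic subunit of PI3K, stood at 198 and 189.6 CPM with siCtrl and 118 and 125 CPM with siUSP15 in KBM7, and in K562 at 178 and 180 CPM with siCtrl and 101 and 95.4 CPM with siUSP15 in set 1 and at 119.8 and 120 CPM with siCtrl and 95.6 and 98.98 CPM with siUSP15 in set 2. It fell by 0.67 on the log2 scale in KBM7 (adjusted p = 0.00022) and had a log2 fold change of -0.59 in K562 (adjusted p = 0.00017), -0.87 in set 1 and -0.30 in set 2. MTURN, or maturin, a protein known from neural differentiation, stood at 77.1 and 75.8 CPM with siCtrl and 45.97 and 50.2 CPM with siUSP15 in KBM7, and in K562 at 27.1 and 25.99 CPM with siCtrl and 14.6 and 11.6 CPM with siUSP15 in set 1 and at 18.96 and 18.9 CPM with siCtrl and 16.4 and 16.4 CPM with siUSP15 in set 2. Both lines fell, with log2 fold changes of -0.67 (adjusted p = 0.00187) and -0.64 (adjusted p = 0.00187), and set 2 again moved less than set 1. CD52, a surface glycopeptide of leukocytes, had log2 fold changes of -0.76 and -0.77, of which the K562 value was -1.096 in set 1 and -0.23 in set 2. Its KBM7 call (adjusted p = 0.00758) was lost without KBM7 siCtrl replicate 1 or KBM7 siUSP15 replicate 1 (adjusted p 0.0523 and 0.0869). ADAM19, a membrane metalloprotease, had -0.77 and -0.73, with the KBM7 call lost without KBM7 siCtrl replicate 2 or KBM7 siUSP15 replicate 2 (adjusted p 0.0592 and 0.0755). With set 1 alone the differences of YES1, CD52, MTURN and PIK3CB passed with a larger fall in K562. They were 0.42 (adjusted p = 9.93e-05), 0.355 (adjusted p = 0.038), 0.38 (adjusted p = 0.0149) and 0.20 (adjusted p = 0.0356). With set 2 alone the differences of the same genes passed with a larger fall in KBM7. In that order they were -0.35 (adjusted p = 0.00124), -0.51 (adjusted p = 0.0219), -0.47 (adjusted p = 0.00168) and -0.38 (adjusted p = 0.000713). The small differences of these genes in the full fit thus average over sets that differ from KBM7 in opposite directions.

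**Figure D2:**
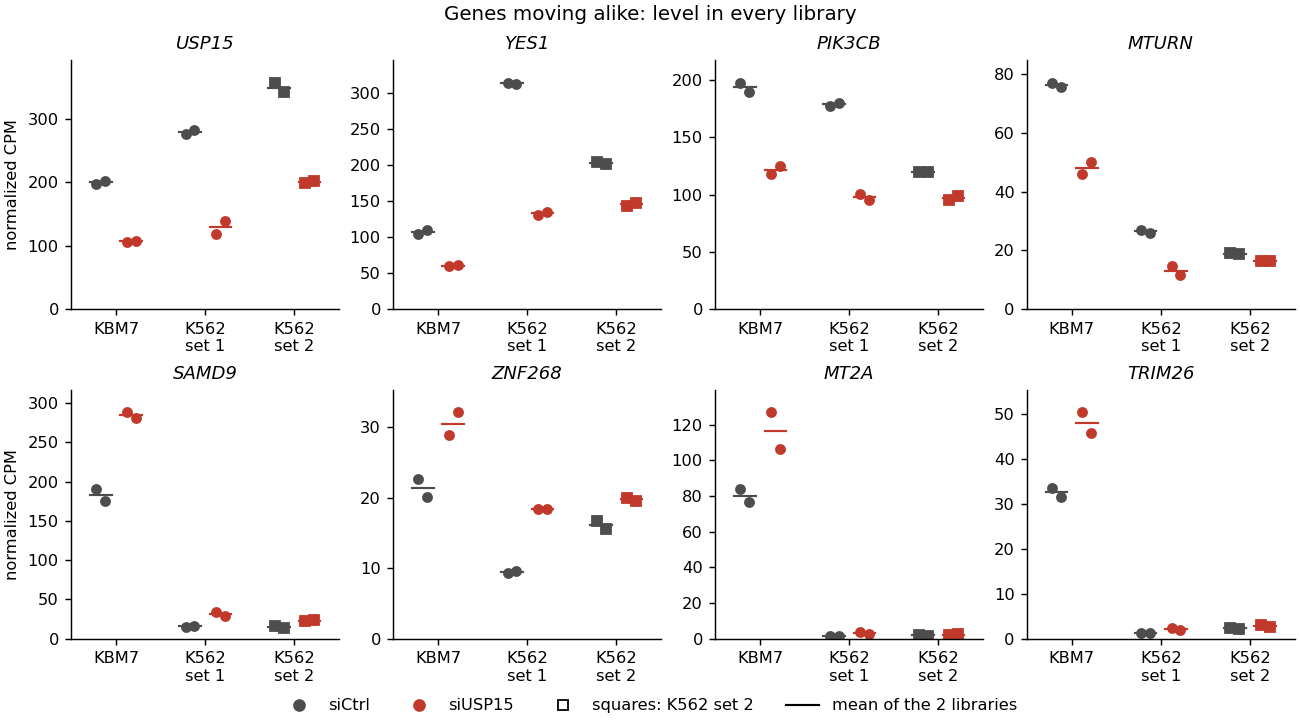
Normalized CPM per library of 8 genes that moved alike, with KBM7, K562 set 1 and K562 set 2 side by side, siCtrl in grey and siUSP15 in red, and lines at the mean of the 2 libraries. USP15, YES1, PIK3CB and MTURN are lower and SAMD9, ZNF268, MT2A and TRIM26 higher with siUSP15 in KBM7 and in both K562 sets, by less in set 2 than in set 1.

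Genes that rose in KBM7 and fell in K562 included a stress-induced regulator of translation, an adaptor of immune cell signaling and a sorting nexin. FAM129A, also known as NIBAN1, a stress-induced regulator of translation, stood at 5.98 and 7.43 CPM with siCtrl and 18.1 and 14.6 CPM with siUSP15 in KBM7. In K562 it stood at 39.2 and 39.4 CPM with siCtrl and 27.9 and 20.6 CPM with siUSP15 in set 1 and at 26.6 and 29.96 CPM with siCtrl and 22.97 and 25.1 CPM with siUSP15 in set 2. The siRNAs did not overlap in KBM7 or within either K562 set, with siUSP15 on the higher side in KBM7 and on the lower side in K562. FAM129A responded with 1.3 in KBM7 (adjusted p = 5.46e-05) and -0.49 in K562 (adjusted p = 0.00431), and the lines differed by 1.79 (standard error 0.208, adjusted p = 1.96e-05). FYB, an adaptor protein of hematopoietic signaling, stood at 13.5 and 13.4 CPM with siCtrl and 20.3 and 21.02 CPM with siUSP15 in KBM7, and in K562 at 8.7 and 9.25 CPM with siCtrl and 4.31 and 3.11 CPM with siUSP15 in set 1 and at 2.08 and 3.07 CPM with siCtrl and 1.999 and 1.97 CPM with siUSP15 in set 2. It had log2 fold changes of 0.62 and -1.02 and a difference of 1.64 (adjusted p = 8.64e-05), with the KBM7 call lost without KBM7 siCtrl replicates 1 or 2 (adjusted p 0.0578 and 0.0592). PCYOX1L, a relative of the oxidase that degrades prenylcysteine, stood at 13.1 and 12.2 CPM with siCtrl and 18.9 and 18.5 CPM with siUSP15 in KBM7, and in K562 at 16.2 and 15.7 CPM with siCtrl and 10.1 and 10.01 CPM with siUSP15 in set 1 and at 9.6 and 11.8 CPM with siCtrl and 8.26 and 8.79 CPM with siUSP15 in set 2. The lines went apart by 1.08 (adjusted p = 4.19e-05), with 0.56 in KBM7 and -0.51 in K562. SNX10, a sorting nexin of endosomes, had log2 fold changes of 0.73 and -0.48 and a difference of 1.21 (adjusted p = 8.68e-05). ABCA5, a lipid transporter, had a difference of 1.42 and TRIM6, a ubiquitin ligase, of 1.01. The KBM7 call of ABCA5 was lost without KBM7 siCtrl replicates 1 or 2 or KBM7 siUSP15 replicate 1 (adjusted p 0.0557 to 0.131), and that of TRIM6 without KBM7 siCtrl replicates 1 or 2 or KBM7 siUSP15 replicates 1 or 2 (adjusted p 0.0691 to 0.139). With set 2 alone as the K562 libraries, none of these genes passed in K562. The K562 response was then -0.23 for FAM129A (adjusted p = 0.252), -0.37 for FYB (adjusted p = 0.421) and -0.32 for PCYOX1L (adjusted p = 0.167). It was -0.25 for SNX10 (adjusted p = 0.425), -0.53 for ABCA5 (adjusted p = 0.321) and -0.15 for TRIM6 (adjusted p = 0.641).

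Genes that fell in KBM7 and rose in K562 included a calcium-binding protein, an enzyme that breaks down prostaglandins and 3 noncoding RNAs. CALB1, calbindin, stood at 14.2 and 16.2 CPM with siCtrl and 7.18 and 8.69 CPM with siUSP15 in KBM7. The K562 levels were 28.1 and 22.4 CPM with siCtrl and 55.2 and 46.7 CPM with siUSP15 in set 1 and at 9.52 and 12.1 CPM with siCtrl and 25.7 and 21.3 CPM with siUSP15 in set 2, higher with siUSP15 in each set. The KBM7 and K562 responses of CALB1 were -0.94 in KBM7 (adjusted p = 0.000243) and 1.06 in K562 (adjusted p = 7.08e-06), and the difference was -1.997 (standard error 0.178, adjusted p = 1.19e-06). HPGD, the dehydrogenase that inactivates prostaglandins, stood at 60.01 and 66.9 CPM with siCtrl and 33.6 and 39.96 CPM with siUSP15 in KBM7, and in K562 at 6.74 and 6.85 CPM with siCtrl and 11.4 and 11.2 CPM with siUSP15 in set 1 and at 9.03 and 9.24 CPM with siCtrl and 13.1 and 12.2 CPM with siUSP15 in set 2. The groups did not overlap in either line, and the log2 fold changes of -0.79 and 0.59 differed by -1.38 (adjusted p = 8.32e-07). LINC01088, a long noncoding RNA, stood at 16.3 and 16.02 CPM with siCtrl and 10.8 and 10.6 CPM with siUSP15 in KBM7, and in K562 at 6.003 and 5.82 CPM with siCtrl and 9.05 and 9.06 CPM with siUSP15 in set 1 and at 3.54 and 3.98 CPM with siCtrl and 6.68 and 5.77 CPM with siUSP15 in set 2. Its responses of -0.60 and 0.66 differed by -1.27 (adjusted p = 4.22e-06). S100A4, a calcium-binding protein linked to cell motility, stood at 293 and 298 CPM with siCtrl and 127 and 169.8 CPM with siUSP15 in KBM7 and was low in K562, at 4.79 and 3.68 CPM with siCtrl and 5.16 and 6.67 CPM with siUSP15 in set 1 and 3.498 and 2.95 CPM with siCtrl and 5.66 and 3.94 CPM with siUSP15 in set 2. It fell by 1.00 on the log2 scale in KBM7, and its K562 rise of 0.55 (adjusted p = 0.0274) was lost without K562 siCtrl replicates 2 or 4 or K562 siUSP15 replicates 2 or 3 (adjusted p 0.0648 to 0.125). The K562 rise of S100A4 passed with neither set alone, at 0.53 with set 1 (adjusted p = 0.0638) and 0.60 with set 2 (adjusted p = 0.261). The other 2 named by the same rule were NPPA-AS1, an antisense RNA, with a difference of -1.597, and RP11-104N10.2, with -1.73. With set 2 alone their K562 rises of 0.78 (adjusted p = 0.0636) and 0.93 (adjusted p = 0.0805) did not pass. The KBM7 call of NPPA-AS1 was lost without KBM7 siCtrl replicates 1 or 2 or KBM7 siUSP15 replicate 1 (adjusted p 0.0522 to 0.367), and that of RP11-104N10.2 without KBM7 siCtrl replicates 1 or 2, KBM7 siUSP15 replicate 1, K562 siCtrl replicates 2 or 4 or K562 siUSP15 replicate 1 (adjusted p 0.0543 to 0.468). NPPA-AS1 and LINC01088 are antisense to other genes and RP11-104N10.2 lies in an intron, and as the counting is not stated to use strand, their reads cannot be told apart from those of the genes they overlap.

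**Figure D3:**
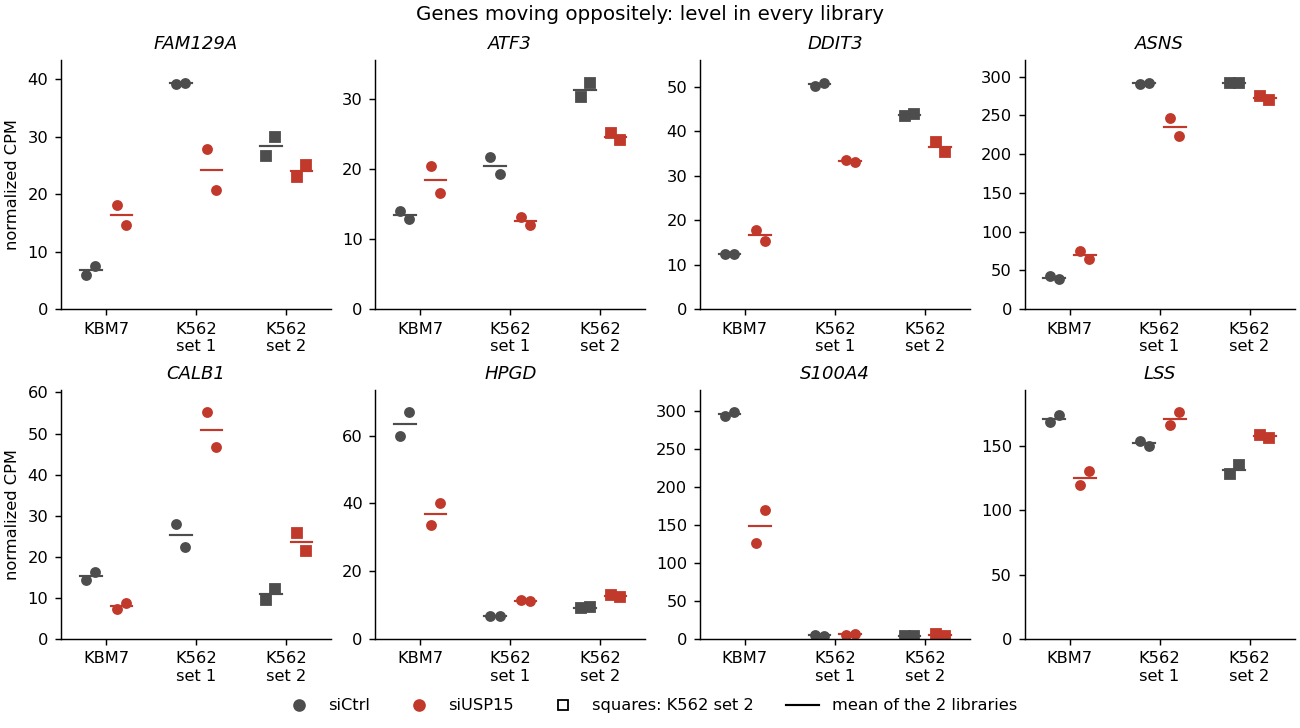
Normalized CPM per library of 8 genes that moved oppositely, drawn as in the plot of the alike genes. FAM129A, ATF3, DDIT3 and ASNS (upper row) are higher with siUSP15 in KBM7 and lower in both K562 sets, and CALB1, HPGD, S100A4 and LSS (lower row) are lower in KBM7 and higher in both K562 sets.

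Of the genes of the integrated stress response, more rose than fell in KBM7 and more fell than rose in K562. Of 42 such genes, all tested, 26 rose and 2 fell in KBM7, where 9.64% of all tested genes rose and 11.2% fell. In K562 3 rose, 16 fell and 23 did not pass, where 6.97% of all tested genes rose and 9.30% fell. The difference was higher in KBM7 for 27 and lower for 1, against 7.94% and 8.03% of all tested genes. Over the list the median response was 0.26 on the log2 scale in KBM7 and -0.096 in K562, and its median difference was 0.34, where the medians over all tested genes were 0.007, 0 and 0. Opposite calls were made for 11 members, all higher in KBM7 and lower in K562. These were the regulators DDIT3, ATF3, CEBPG, TRIB3, SESN2 and DDIT4, the amino acid enzyme ASNS and the aminoacyl-tRNA synthetases WARS, MARS, YARS and IARS. Of those given no values here, CEBPG lost its KBM7 call without KBM7 siCtrl replicate 2 or KBM7 siUSP15 replicate 1 (adjusted p 0.0776 and 0.124), and DDIT4 and MARS lost their K562 calls, DDIT4 without K562 siCtrl replicates 1 or 2 or K562 siUSP15 replicates 1 or 2 (adjusted p 0.0799 to 0.0948) and MARS without K562 siCtrl replicates 1 or 2 (adjusted p 0.053 and 0.055). IARS lost its KBM7 call without KBM7 siCtrl replicate 2 or KBM7 siUSP15 replicate 1 (adjusted p 0.164 and 0.136) and its K562 call without K562 siCtrl replicates 1, 2 or 3 or K562 siUSP15 replicates 1, 2 or 3 (adjusted p 0.0556 to 0.108). Without KBM7 siCtrl replicate 2, 17 members rose in KBM7, and without K562 siCtrl replicate 1 or K562 siCtrl replicate 2, 10 fell in K562, and with any 1 library left out at most 4 rose there. With set 2 alone as the K562 libraries, 2 members fell in K562 and the difference was higher for 26 and lower for 1.

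Members that fell in K562 were found mainly among the regulators and the aminoacyl-tRNA synthetases, and no test compared the roles. ATF3, a transcription factor induced by stress, stood at 14.1 and 12.9 CPM with siCtrl and 20.4 and 16.6 CPM with siUSP15 in KBM7. In K562 it stood at 21.8 and 19.3 CPM with siCtrl and 13.2 and 12.1 CPM with siUSP15 in set 1 and at 30.3 and 32.4 CPM with siCtrl and 25.2 and 24.2 CPM with siUSP15 in set 2. The siRNAs did not overlap in KBM7 or within a K562 set. ATF3 had log2 fold changes of 0.46 in KBM7 (adjusted p = 0.0112), a call lost without KBM7 siCtrl replicate 2 or KBM7 siUSP15 replicate 1 (adjusted p 0.109 and 0.218), and -0.51 in K562 (adjusted p = 0.000657), and the difference of 0.97 passed (adjusted p = 0.000225). DDIT3, or CHOP, the factor that links prolonged stress to cell death, stood at 12.3 and 12.4 CPM with siCtrl and 17.7 and 15.4 CPM with siUSP15 in KBM7, and in K562 at 50.2 and 50.9 CPM with siCtrl and 33.4 and 33.03 CPM with siUSP15 in set 1 and at 43.4 and 43.8 CPM with siCtrl and 37.6 and 35.2 CPM with siUSP15 in set 2. Its difference was 0.86 (adjusted p = 0.000164), with 0.43 in KBM7 (adjusted p = 0.00888), a call lost without KBM7 siCtrl replicates 1 or 2 or KBM7 siUSP15 replicate 1 (adjusted p 0.0564 to 0.15), and -0.44 in K562. ASNS, asparagine synthetase, stood at 42.1 and 38.5 CPM with siCtrl and 74.7 and 64.1 CPM with siUSP15 in KBM7, and in K562 at 290.3 and 292 CPM with siCtrl and 246 and 224 CPM with siUSP15 in set 1 and at 292 and 292 CPM with siCtrl and 275 and 270 CPM with siUSP15 in set 2. It rose by 0.79 in KBM7 (standard error 0.0813, adjusted p = 2.39e-06) and had a log2 fold change of -0.21 in K562 (standard error 0.0513, adjusted p = 0.0116), a call lost without K562 siCtrl replicate 2 (adjusted p 0.0583). PSAT1 makes serine and WARS charges the tRNA of tryptophan. PSAT1 stood at 105 and 100.2 CPM with siCtrl and 229.9 and 192 CPM with siUSP15 in KBM7, and in K562 at 94.96 and 94.1 CPM with siCtrl and 94.2 and 87.2 CPM with siUSP15 in set 1 and at 109 and 109.9 CPM with siCtrl and 109 and 108 CPM with siUSP15 in set 2, so that its difference of 1.08 (adjusted p = 2.25e-07) came with a K562 response of -0.038 that did not pass. WARS, which interferon also induces, had 0.89 in KBM7 and -0.19 in K562 (adjusted p = 0.0163), with a difference of 1.08 (adjusted p = 4.75e-07). The K562 call of WARS was lost without K562 siCtrl replicates 1 or 2 or K562 siUSP15 replicates 1 or 2 (adjusted p 0.0536 to 0.0816). By role, 7 of 11 regulators rose and 1 fell in KBM7, and 1 rose and 7 fell in K562. Of 11 enzymes of amino acid synthesis, 7 rose in KBM7 and 2 fell in K562, and of 10 synthetases, 8 rose in KBM7 and 5 fell in K562. ATF4, which is controlled mainly at translation, had log2 fold changes of -0.008 and -0.045 and passed in neither line. PPP1R15A and GDF15 went against the list, as both fell in both lines, GDF15 by -2.39 and -0.48 on the log2 scale. The K562 call of PPP1R15A was lost without K562 siCtrl replicates 1 or 4 or K562 siUSP15 replicates 1, 3 or 4 (adjusted p 0.056 to 0.0945).

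The promoters of ATF3 and ASNS are shown because both carry the letters TGATGNAA of the C/EBP-ATF response element, the site through which ATF4 and its partners act. They are RefSeq windows as above, each 1 of 2 windows of the gene, with the motif in capitals. The match begins 191 bases before the start in ATF3 (plus strand, chr1:212565157-212565456) and 68 bases before it in ASNS (minus strand, chr7:97872359-97872658).
ATF3: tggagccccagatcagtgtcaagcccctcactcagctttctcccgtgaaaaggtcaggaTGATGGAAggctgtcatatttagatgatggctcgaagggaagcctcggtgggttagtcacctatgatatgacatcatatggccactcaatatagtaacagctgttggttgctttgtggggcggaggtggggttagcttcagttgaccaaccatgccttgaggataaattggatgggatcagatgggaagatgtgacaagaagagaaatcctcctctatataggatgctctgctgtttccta
ASNS: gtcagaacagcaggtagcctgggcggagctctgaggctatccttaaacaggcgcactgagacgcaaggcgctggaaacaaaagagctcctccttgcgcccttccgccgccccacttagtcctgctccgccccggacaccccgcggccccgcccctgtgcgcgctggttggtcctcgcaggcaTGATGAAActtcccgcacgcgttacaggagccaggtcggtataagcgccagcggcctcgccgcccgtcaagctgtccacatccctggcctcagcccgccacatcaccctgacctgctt
Of the 10221 tested genes with a window, 268 (2.62%) hold this motif, and of the stress-response genes with a window, 7 of 26 (26.9%) do. Among the genes that rose in KBM7 and fell in K562, 7 of 117 with a window (5.98%) hold it. These are ASNS, ATF3, CEBPG, MEF2C, PIK3R1, RSL24D1 and SNX10. Of the 100 genes with a window that went the other way, 0 hold it.

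**Figure D4:**
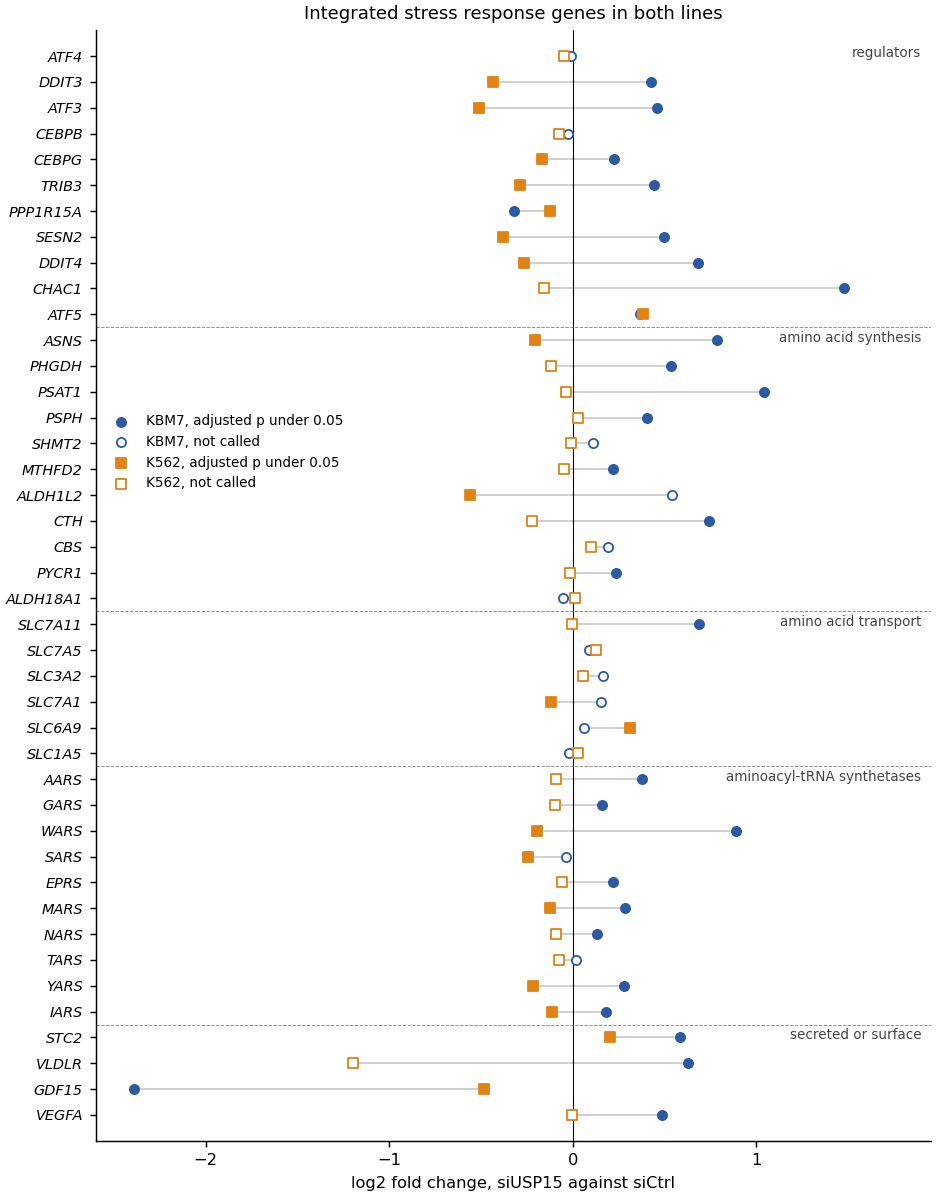
Log2 fold change with siUSP15 of the 42 integrated stress response genes in KBM7 and in K562, grouped by role, with filled points for responses that passed. In KBM7 26 filled points lie above 0 and 2 below, and in K562 3 lie above 0 and 16 below.

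Chaperones of the endoplasmic reticulum, the other arm of the response to misfolded proteins, passed mainly in K562. Of 19 genes, 1 rose and 1 fell in KBM7, and 11 rose and 1 fell in K562, with median log2 fold changes of 0.025 and 0.11. Of all tested genes, 9.64% rose and 11.2% fell in KBM7, and 6.97% rose and 9.30% fell in K562. All 11 that rose in K562 are among the 14 chaperones and their partners. HSPA5, or BiP, the main chaperone of this compartment, stood at 564 and 566 CPM with siCtrl and 547 and 556 CPM with siUSP15 in KBM7, and in K562 at 503 and 514 CPM with siCtrl and 583 and 591 CPM with siUSP15 in set 1 and at 589.9 and 574 CPM with siCtrl and 626 and 605 CPM with siUSP15 in set 2. The HSPA5 response was -0.036 in KBM7 and 0.14 in K562, and the difference of -0.18 (adjusted p = 0.0462) was lost without KBM7 siCtrl replicates 1 or 2, KBM7 siUSP15 replicates 1 or 2, K562 siCtrl replicates 1, 2 or 4 or K562 siUSP15 replicates 1, 2 or 3 (adjusted p 0.0636 to 0.169). MANF, a secreted factor of this response, stood at 62.5 and 61.95 CPM with siCtrl and 55.1 and 55.4 CPM with siUSP15 in KBM7, and in K562 at 23.01 and 22.6 CPM with siCtrl and 30.8 and 28.5 CPM with siUSP15 in set 1 and at 22.1 and 21.8 CPM with siCtrl and 24.6 and 24.1 CPM with siUSP15 in set 2. Its difference of -0.44 passed (adjusted p = 0.0019), and the siRNAs did not overlap within either K562 set. PDIA4, a disulfide isomerase, rose by 0.26 in K562 (adjusted p = 0.00111), 0.39 in set 1 and 0.14 in set 2, and had 0.089 in KBM7. The difference between the lines passed for HSPA5 and MANF alone, so the responses of the other members were not shown to differ. The K562 count was 6, 5, 5, 6, 7 and 7 without K562 siCtrl replicate 1, siCtrl replicate 2, siUSP15 replicate 1, siUSP15 replicate 2, siCtrl replicate 4 or siUSP15 replicate 3, and with set 2 alone 0 members passed in K562 with edgeR (7 at an unadjusted p under 0.05), at a median of 0.051. The promoter of HSPA5 (minus strand, chr9:125241294-125241593) is shown because it holds the full endoplasmic reticulum stress element, searched as CCAAT, any 9 bases and CCACG and shown in capitals, which begins 66 bases before the start.
HSPA5: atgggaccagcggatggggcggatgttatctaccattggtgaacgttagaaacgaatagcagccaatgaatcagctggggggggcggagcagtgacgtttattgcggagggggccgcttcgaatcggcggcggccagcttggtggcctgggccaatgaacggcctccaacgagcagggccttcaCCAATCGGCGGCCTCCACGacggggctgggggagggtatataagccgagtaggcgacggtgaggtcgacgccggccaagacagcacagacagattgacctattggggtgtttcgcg
This element was found in 7 of 18 genes of the list with a window (38.9%) and in 15 of the 10221 tested genes with a window (0.147%). The 7 are HSPA5, HSP90B1, CALR, CANX, PDIA6, CRELD2 and XBP1.

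Interferon-response genes rose broadly in KBM7, and in K562 as many of them fell as rose. Of 64 genes, 8 were listed in the KBM7 table only and 56 were tested. Of these 56, 50 rose and 2 fell in KBM7, where 9.64% of all tested genes rose and 11.2% fell. In K562 6 rose and 6 fell, not far from the 6.97% and 9.30% of all tested genes. The difference was higher in KBM7 for 32 and lower for 1, TRIM5, against 7.94% and 8.03% of all tested genes. The median log2 fold change was 0.69 in KBM7 and 0.047 in K562, and 28 of the 56 had under 1 log2 CPM in K562, where their response is poorly measured. The 6 that rose in both lines were SAMD9, BST2, DTX3L, EIF2AK2, SP110 and PSMB9, and the K562 call of PSMB9 was lost without K562 siCtrl replicates 1, 2 or 4 or K562 siUSP15 replicates 1, 2 or 3 (adjusted p 0.0512 to 0.157). DTX3L, a ubiquitin ligase that works with PARP9, stood at 231 and 207 CPM with siCtrl and 335 and 325 CPM with siUSP15 in KBM7, and in K562 at 20.1 and 21.2 CPM with siCtrl and 26.9 and 26.5 CPM with siUSP15 in set 1 and at 18.5 and 18.9 CPM with siCtrl and 23.1 and 23 CPM with siUSP15 in set 2, with no overlap between the siRNAs in either line. It rose by 0.59 (adjusted p = 4.32e-07) and 0.34 (adjusted p = 0.000371). EIF2AK2, the kinase PKR that senses double-stranded RNA, rose by 0.39 in KBM7 and 0.14 in K562 (adjusted p = 0.0386), the latter lost without K562 siCtrl replicates 1, 2 or 4 or K562 siUSP15 replicates 1 or 3 (adjusted p 0.0632 to 0.15). STAT2, ISG20 and EPSTI1 were opposite, higher in KBM7 and lower in K562. STAT2 had 0.66 in KBM7 and -0.17 in K562 (adjusted p = 0.0338), the latter lost without K562 siCtrl replicates 1, 2 or 4 or K562 siUSP15 replicates 1, 2 or 3 (adjusted p 0.0583 to 0.17). ISG20 lost its KBM7 call without KBM7 siCtrl replicate 2 or KBM7 siUSP15 replicate 1 (adjusted p 0.0764 and 0.142) and its K562 call without K562 siCtrl replicate 2 or K562 siUSP15 replicate 2 (adjusted p 0.0803 and 0.0738). EPSTI1 lost its K562 call without K562 siCtrl replicates 1, 2 or 4 or K562 siUSP15 replicates 1, 2 or 4 (adjusted p 0.0508 to 0.245). B2M, the light chain of class I molecules, had 0.59 and -0.007, with a difference of 0.60 (adjusted p = 3.53e-06). The K562 counts moved with single libraries, with 3 members higher without K562 siCtrl replicate 2, K562 siUSP15 replicate 1 or K562 siUSP15 replicate 3. The number lower in K562 was 2, 1, 2, 1 and 3 without K562 siCtrl replicate 1, siCtrl replicate 2, siUSP15 replicate 1, siUSP15 replicate 2 or siCtrl replicate 4. The interferon-stimulated response element shown above for SAMD9 and BST2 was found in 27 of the 43 tested list members with a window (62.8%).

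**Figure D5:**
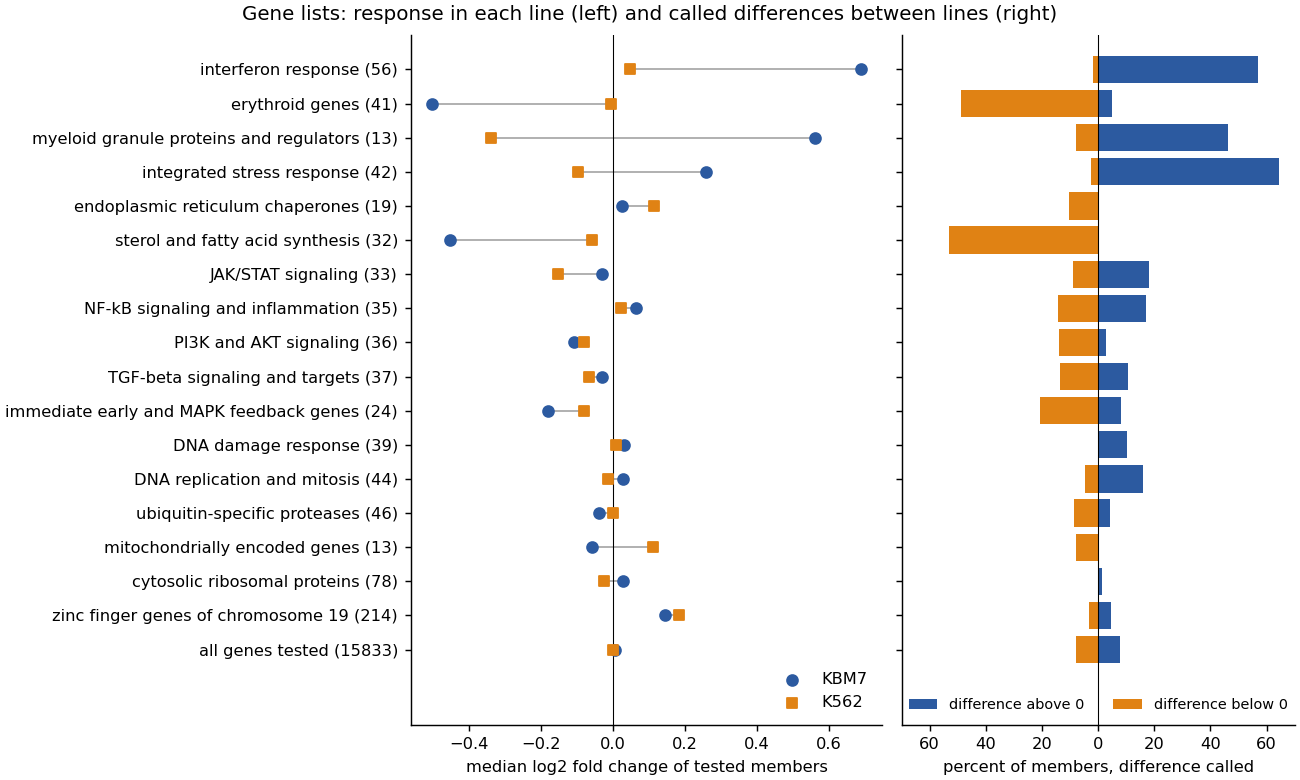
Left, median log2 fold change with siUSP15 of each gene list in KBM7 and in K562. Right, percent of tested members whose difference between the lines passed, split into differences above 0 (response higher in KBM7) and below 0. The interferon and stress lists have medians above 0 in KBM7, at 0.69 and 0.26, the sterol and erythroid lists have medians below 0 in KBM7, at -0.45 and -0.50, and the K562 medians of these 4 lists lie between -0.096 and 0.047.

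Genes of sterol and fatty acid synthesis, the pathway switched on by SREBP factors when sterols are low, fell in KBM7 and fell for a part of the list in K562. Of 32 genes, 27 fell in KBM7, where 11.2% of all tested genes fell. In K562 3 rose and 11 fell, against 6.97% and 9.30% of all tested genes. The difference was lower in KBM7 for 17, against 8.03% of all tested genes. The median log2 fold change was -0.45 in KBM7 and -0.058 in K562, where it was -0.23 in set 1 and 0.027 in set 2. The 11 that fell in both lines included FDFT1 of sterol synthesis and ELOVL6, which lengthens fatty acids. HMGCS1, an early enzyme of sterol synthesis that also fell in both, stood at 261 and 263 CPM with siCtrl and 163 and 202 CPM with siUSP15 in KBM7, and in K562 at 461 and 429 CPM with siCtrl and 281 and 270.3 CPM with siUSP15 in set 1 and at 419 and 408 CPM with siCtrl and 405 and 383 CPM with siUSP15 in set 2. Its log2 fold change was -0.52 in KBM7 (adjusted p = 0.00777), lost without KBM7 siUSP15 replicate 1 (adjusted p 0.137), and -0.38 in K562 (adjusted p = 0.00889), lost without K562 siUSP15 replicate 1 (adjusted p 0.0551), with -0.69 in set 1 and -0.070 in set 2. LSS, which closes the sterol rings, was the member that moved oppositely. It stood at 169 and 174 CPM with siCtrl and 119.5 and 131 CPM with siUSP15 in KBM7, and in K562 at 155 and 150.1 CPM with siCtrl and 167 and 177 CPM with siUSP15 in set 1 and at 128 and 135 CPM with siCtrl and 159 and 157 CPM with siUSP15 in set 2. Its log2 fold changes of -0.46 (adjusted p = 1.48e-05) and 0.22 (adjusted p = 0.00164) differed by -0.68 (adjusted p = 4.69e-06). FASN, fatty acid synthase, stood at 629.9 and 636 CPM with siCtrl and 437 and 427 CPM with siUSP15 in KBM7, and in K562 at 1345 and 1323 CPM with siCtrl and 1180 and 1056 CPM with siUSP15 in set 1 and at 994 and 1086 CPM with siCtrl and 1109 and 1258 CPM with siUSP15 in set 2. It was lower with siUSP15 in set 1 and higher in set 2, and its K562 response of -0.035 did not pass, while the difference of -0.52 did (adjusted p = 0.00746). The number that fell in K562 was 4, 4, 4 and 5 without K562 siCtrl replicate 1, siCtrl replicate 2, siUSP15 replicate 1 or siUSP15 replicate 2, and 0 with edgeR in set 2 alone (7 at an unadjusted p under 0.05, in either direction), where the difference was lower for 28. Without KBM7 siCtrl replicate 2 or KBM7 siUSP15 replicate 1 the difference was lower for 10 and 11.

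Of the erythroid genes, more fell than rose in KBM7, and the K562 counts differed between the sets. The list has 42 genes, of which 41 were tested. In KBM7 1 rose, 20 fell and 20 did not pass, where 11.2% of all tested genes fell. In K562 2 rose and 6 fell, where 6.97% and 9.30% of all tested genes did. The median log2 fold changes were -0.50 in KBM7 and -0.004 in K562, 0.059 in set 1 and -0.080 in set 2. With set 1 alone 14 rose and 6 fell in K562. In set 2 alone 0 rose and 4 fell with edgeR (13 at an unadjusted p under 0.05, in either direction). Without K562 siUSP15 replicate 4, 6 rose in K562, and without K562 siCtrl replicate 1 or K562 siCtrl replicate 2 the 2 that rose lost their calls. The difference was lower in KBM7 for 20, among them GATA1, KLF1, TAL1, NFE2 and GFI1B, regulators of the erythroid program, with the call of NFE2 lost without KBM7 siUSP15 replicate 1 (adjusted p 0.0952). The difference was higher in KBM7 for 2 of the list. Of all tested genes, 8.03% had the lower and 7.94% the higher response in KBM7. Of the 41, 13 had under 1 log2 CPM in KBM7. GATA1 stood at 30.2 and 31.2 CPM with siCtrl and 17.5 and 17.8 CPM with siUSP15 in KBM7, and in K562 at 253 and 251 CPM with siCtrl and 259 and 281 CPM with siUSP15 in set 1 and at 225 and 236 CPM with siCtrl and 229 and 221 CPM with siUSP15 in set 2. It fell by 0.80 on the log2 scale in KBM7, had 0.034 in K562 and a difference of -0.83 (adjusted p = 3.68e-06). GFI1B, a repressor needed for erythroid and platelet formation, was opposite. It stood at 79.7 and 81.3 CPM with siCtrl and 43.4 and 42.6 CPM with siUSP15 in KBM7, and in K562 at 88.6 and 85.7 CPM with siCtrl and 100.3 and 113 CPM with siUSP15 in set 1 and at 79.3 and 78.8 CPM with siCtrl and 84.4 and 76.95 CPM with siUSP15 in set 2. Its difference was -1.07 (adjusted p = 1.18e-06), while its K562 response of 0.17 (adjusted p = 0.0433) was lost without KBM7 siCtrl replicates 1 or 2, KBM7 siUSP15 replicates 1 or 2, K562 siCtrl replicates 1 or 2 or K562 siUSP15 replicates 1, 2 or 3 (adjusted p 0.0532 to 0.196) and its set 2 libraries overlapped. XK and CPOX were the members that fell in both lines, and the K562 call of XK was lost without KBM7 siCtrl replicates 1 or 2, K562 siCtrl replicates 1, 2 or 3 or K562 siUSP15 replicates 1, 2 or 4 (adjusted p 0.0637 to 0.178). SPTB, a spectrin of the red cell skeleton, had log2 fold changes of -2.03 and -0.006. HBE1, embryonic globin, stood at 41.8 and 52.1 CPM with siCtrl and 3.87 and 7.86 CPM with siUSP15 in KBM7, and in K562 at 895 and 826 CPM with siCtrl and 858 and 969 CPM with siUSP15 in set 1 and at 515 and 538 CPM with siCtrl and 566 and 454 CPM with siUSP15 in set 2. Its difference of -3.05 (adjusted p = 6.93e-08) passed, and in KBM7 no siUSP15 library reached the siCtrl level. Without KBM7 siUSP15 replicate 1 the difference was lower for 13 of the list.

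Myeloid genes were measured well in K562 for few members. Of 19 genes, 5 were listed in the KBM7 table only and 13 were tested, of which 8 had under 1 log2 CPM in K562. In KBM7 7 rose and 1 fell, and in K562 1 rose and 6 fell, where 9.64% of all tested genes rose in KBM7 and 9.30% fell in K562. The difference was higher in KBM7 for 6 and lower for 1, against 7.94% and 8.03% of all tested genes. In set 2 alone 0 members fell and 1 rose in K562 with edgeR (4 at an unadjusted p under 0.05, in either direction), and the difference was higher for 2. MPO, SRGN and SPI1 rose in KBM7 but fell in K562, and MS4A3 did the reverse. The KBM7 call of SRGN was lost without KBM7 siCtrl replicate 1 or KBM7 siUSP15 replicate 2 (adjusted p 0.155 and 0.122). SPI1, or PU.1, the factor that directs myeloid development, stood at 91.5 and 88.4 CPM with siCtrl and 114 and 99.9 CPM with siUSP15 in KBM7, and in K562 at 38.6 and 38.5 CPM with siCtrl and 25.2 and 22.8 CPM with siUSP15 in set 1 and at 16.96 and 17.5 CPM with siCtrl and 14.9 and 14.2 CPM with siUSP15 in set 2. Its responses were 0.25 in KBM7 (adjusted p = 0.0498), lost without KBM7 siCtrl replicates 1 or 2, KBM7 siUSP15 replicate 1, K562 siCtrl replicates 2 or 4 or K562 siUSP15 replicate 1 (adjusted p 0.0541 to 0.435), and -0.50 in K562 (adjusted p = 0.000537). The difference of 0.76 passed (adjusted p = 0.0003). MS4A3, a granulocyte progenitor protein, stood at 90.7 and 87.6 CPM with siCtrl and 59.6 and 63.7 CPM with siUSP15 in KBM7, and in K562 at 2.52 and 2.44 CPM with siCtrl and 2.66 and 2.8 CPM with siUSP15 in set 1 and at 3.17 and 4.18 CPM with siCtrl and 5.81 and 5.29 CPM with siUSP15 in set 2. Its log2 fold changes of -0.53 and 0.41 (adjusted p = 0.0197) differed by -0.95 (adjusted p = 0.000156), and its K562 call was lost without K562 siCtrl replicate 3 or K562 siUSP15 replicate 3 (adjusted p 0.0801 and 0.0802). MPO, myeloperoxidase, stood at 5.59 and 5.84 CPM with siCtrl and 14.8 and 18.7 CPM with siUSP15 in KBM7 and at under 1 CPM in every K562 library. Its difference of 3.91 was 2.75 with an adjusted p of 0.137 when set 2 alone stood for K562.

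Among zinc finger genes of chromosome 19, most of which encode KRAB repressors, more rose than fell in each line, but most passed in neither direction. Of 230 genes with a symbol starting with ZNF on this chromosome, 214 were tested. In KBM7 33 rose and 4 fell, and in K562 65 rose and 4 fell, against 9.64% and 6.97% of all tested genes that rose. Their median log2 fold change was 0.14 in KBM7 and 0.18 in K562, 0.27 in set 1 and 0.065 in set 2. Of the 214 tested, 10 rose in both lines and 1 fell in both, where 0.947% and 1.88% of all tested genes did. The 3 opposite genes rose in KBM7 and fell in K562, a class that holds 1.00% of all tested genes. The difference passed above 0 for 10 of the 214 and below 0 for 7. Both are smaller shares than the 7.94% and 8.03% of all tested genes. ZNF850 stood at 20.8 and 20.8 CPM with siCtrl and 21 and 21.1 CPM with siUSP15 in KBM7, and in K562 at 17.5 and 18.3 CPM with siCtrl and 38.2 and 36.99 CPM with siUSP15 in set 1 and at 25.1 and 25.1 CPM with siCtrl and 35.5 and 34.9 CPM with siUSP15 in set 2. It rose in K562 alone, by 0.77 (adjusted p = 4.33e-05) against 0.017 in KBM7, a difference of -0.75 (adjusted p = 0.00213). ZNF83 stood at 20.2 and 21.2 CPM with siCtrl and 27.9 and 28.5 CPM with siUSP15 in KBM7, and in K562 at 54.8 and 54.7 CPM with siCtrl and 45.1 and 45.6 CPM with siUSP15 in set 1 and at 43.9 and 42.4 CPM with siCtrl and 40.8 and 42.02 CPM with siUSP15 in set 2. It was opposite, with 0.45 and -0.17 and a difference of 0.62 (adjusted p = 0.000151), and its K562 call was lost without K562 siCtrl replicates 1 or 2 or K562 siUSP15 replicates 1 or 2 (adjusted p 0.0738 to 0.108). These genes are close copies of one another, and how the authors' counting divided shared reads is not stated. In KBM7 13, 18, 13 and 20 rose without siCtrl replicate 1, siCtrl replicate 2, siUSP15 replicate 1 or siUSP15 replicate 2. In K562 35, 36, 43 and 41 rose without siCtrl replicate 1, siCtrl replicate 2, siUSP15 replicate 1 or siUSP15 replicate 2, and 2 rose in set 2 alone.

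Among the genes named for the size of the difference, LIPH, UCA1 and HBE1 were measured in both lines, and some others stood at very low levels in KBM7 or in K562. LIPH, a phospholipase of the membrane, stood at 10.3 and 12.99 CPM with siCtrl and 0.132 and 0.239 CPM with siUSP15 in KBM7, and in K562 at 11.9 and 10.1 CPM with siCtrl and 7.32 and 6.29 CPM with siUSP15 in set 1 and at 2.77 and 3.39 CPM with siCtrl and 3.17 and 2.89 CPM with siUSP15 in set 2. It fell by 5.97 on the log2 scale in KBM7 (standard error 0.322, adjusted p = 1.64e-09) and had -0.48 in K562 (adjusted p = 0.025), the latter lost without K562 siCtrl replicates 1 or 2 or K562 siUSP15 replicates 1 or 2 (adjusted p 0.0769 to 0.156), a difference of -5.49. UCA1, a long noncoding RNA, stood at 4.97 and 6.52 CPM with siCtrl and 0.265 and 0.439 CPM with siUSP15 in KBM7, and in K562 at 112 and 104 CPM with siCtrl and 94.8 and 103 CPM with siUSP15 in set 1 and at 97.3 and 93.4 CPM with siCtrl and 109 and 92.8 CPM with siUSP15 in set 2. Its difference of -4.003 (standard error 0.301, adjusted p = 1.62e-07) came with a K562 response of -0.028. AQP2, a water channel, was opposite at low levels in K562. It stood at 28.5 and 35.7 CPM with siCtrl and 9.06 and 14.5 CPM with siUSP15 in KBM7, and in K562 at 0.218 and 0.0857 CPM with siCtrl and 1.06 and 1.803 CPM with siUSP15 in set 1 and at 0.0814 and 0.0797 CPM with siCtrl and 0.113 and 0.306 CPM with siUSP15 in set 2, and its difference of -4.28 (adjusted p = 5.67e-05) did not pass with set 2 alone (adjusted p = 0.138). FCGR2B, an inhibitory receptor for antibodies, stood at 5.88 and 5.84 CPM with siCtrl and 16.2 and 13.8 CPM with siUSP15 in KBM7, and in K562 at 4.09 and 4.11 CPM with siCtrl and 1.52 and 1.21 CPM with siUSP15 in set 1 and at 0.407 and 0.598 CPM with siCtrl and 0.226 and 0.6995 CPM with siUSP15 in set 2. It rose by 1.36 in KBM7 and had -1.35 in K562, where set 2 overlapped, and the difference was 2.71 (adjusted p = 9.77e-06), or 1.53 with set 2 alone (adjusted p = 0.0453). INHBA, a subunit of activin, stood at 2.34 and 2.27 CPM with siCtrl and 4.99 and 4.87 CPM with siUSP15 in KBM7 and at no more than 0.304 CPM in K562, and its difference of 3.37 (adjusted p = 0.0043) did not pass with set 2 alone either (adjusted p = 0.134). ITGA2, an integrin chain for collagen, was at 0 counts in all K562 siUSP15 libraries, which is at least 3.61-fold lower than siCtrl over the group at a floor of 3 counts, and stood at 10.3 and 10.5 CPM with siCtrl and 14.7 and 12.9 CPM with siUSP15 in KBM7. Of the genes whose difference passed, 395 differed by over 1 on the log2 scale, and 363 had under 1 log2 CPM in a line.

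Some genes responded in K562 and not measurably in KBM7. ACSS1, a mitochondrial enzyme that activates acetate, stood at 64.2 and 61.04 CPM with siCtrl and 64.6 and 62.7 CPM with siUSP15 in KBM7. The K562 levels were 1.22 and 1.16 CPM with siCtrl and 3.595 and 4.44 CPM with siUSP15 in set 1 and at 1.71 and 2.27 CPM with siCtrl and 2.904 and 3.02 CPM with siUSP15 in set 2. All K562 siUSP15 libraries lay above all K562 siCtrl libraries, and the log2 fold change was 1.15 there (adjusted p = 0.000649) against 0.024 in KBM7, a difference of -1.13 (adjusted p = 0.00167). With set 2 alone neither the K562 response of ACSS1, 0.575 (adjusted p = 0.113), nor its difference, -0.55 (adjusted p = 0.0519), passed. PROCR, the receptor of protein C, stood at 2.18 and 2.46 CPM with siCtrl and 2.84 and 2.75 CPM with siUSP15 in KBM7, and in K562 at 20.4 and 18.6 CPM with siCtrl and 8.25 and 5.17 CPM with siUSP15 in set 1 and at 3.86 and 3.43 CPM with siCtrl and 2.49 and 2.89 CPM with siUSP15 in set 2. It had a log2 fold change of -1.23 in K562 (adjusted p = 0.000344) and a difference of 1.51 (adjusted p = 0.01) that was lost without KBM7 siCtrl replicate 1 or KBM7 siUSP15 replicate 1 (adjusted p 0.0584 and 0.0576). IL10RA, the receptor of interleukin 10, stood at 10.1 and 10.5 CPM with siCtrl and 10.1 and 11.7 CPM with siUSP15 in KBM7, and in K562 at 8.31 and 6.895 CPM with siCtrl and 1.52 and 1.26 CPM with siUSP15 in set 1 and at 1.02 and 1.36 CPM with siCtrl and 0.566 and 0.831 CPM with siUSP15 in set 2. Its K562 response of -2.07 differed from 0.082 in KBM7 by 2.16 (adjusted p = 9.99e-05), and with set 2 alone the difference was 0.86 (adjusted p = 0.0887). PROCR with set 2 alone had a K562 response of -0.44 (adjusted p = 0.238) and a difference of 0.72 (adjusted p = 0.0626).

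In the signaling lists a few members moved alike or oppositely. Over all tested genes, 9.64% rose and 11.2% fell in KBM7 and 6.97% rose and 9.30% fell in K562. Of 33 tested genes of JAK/STAT signaling, 3 rose and 8 fell in KBM7 and 10 fell in K562, where the median log2 fold change was -0.15, or -0.22 in set 1 and -0.018 in set 2. The KBM7 number that fell was 5, 5 and 4 without KBM7 siCtrl replicate 1, KBM7 siCtrl replicate 2 or KBM7 siUSP15 replicate 1. SOCS3, PIM2 and BCL2L1, a feedback inhibitor, a survival kinase and a survival protein that STAT factors induce, fell in both lines. PIM2 stood at 186 and 195 CPM with siCtrl and 105 and 111 CPM with siUSP15 in KBM7, and in K562 at 170 and 173 CPM with siCtrl and 131 and 144 CPM with siUSP15 in set 1 and at 160.4 and 162 CPM with siCtrl and 128 and 123 CPM with siUSP15 in set 2, and it fell more in KBM7, by a difference between the lines of -0.48 (adjusted p = 0.000129). SOCS3 stood at 22.4 and 21.7 CPM with siCtrl and 8.37 and 8.42 CPM with siUSP15 in KBM7, and in K562 at 61.8 and 60.6 CPM with siCtrl and 34.3 and 32.8 CPM with siUSP15 in set 1 and at 11.6 and 11.2 CPM with siCtrl and 12.1 and 10.1 CPM with siUSP15 in set 2. It had log2 fold changes of -1.39 and -0.57, and in set 2 its libraries overlapped. Of 36 tested genes of PI3K and AKT signaling, 2 rose and 10 fell in KBM7 and 5 rose and 8 fell in K562, and the catalytic subunits PIK3CB and PIK3CG fell in both. Of the list, the number that fell in K562 was 5 without KBM7 siCtrl replicate 1 or KBM7 siCtrl replicate 2, and 4, 3, 4 and 3 without K562 siCtrl replicate 1, siCtrl replicate 2, siUSP15 replicate 1 or siUSP15 replicate 2, where at most 2 rose. Their median was -0.11 in KBM7. The regulatory subunits went apart, with PIK3R1 at 0.29 in KBM7 and -0.23 in K562 and PIK3R3 at -0.53 and 0.24. The K562 call of PIK3R3 (adjusted p = 0.0429) was lost without KBM7 siCtrl replicates 1 or 2, K562 siCtrl replicates 1, 2 or 3 or K562 siUSP15 replicates 1, 2 or 3 (adjusted p 0.052 to 0.156). The KBM7 call of PIK3R1 was lost without KBM7 siCtrl replicate 2 or KBM7 siUSP15 replicates 1 or 2 (adjusted p 0.0507 to 0.109) and its K562 call without K562 siCtrl replicate 2 or K562 siUSP15 replicates 2 or 3 (adjusted p 0.0561 to 0.111). Of 37 tested genes of TGF-β signaling, 4 rose and 8 fell in KBM7 and 3 rose and 7 fell in K562, and the receptors ACVR1B and BMPR1A and the repressor SKIL fell in both. The K562 calls of ACVR1B and BMPR1A were lost, ACVR1B without K562 siCtrl replicates 2 or 4 or K562 siUSP15 replicates 2 or 3 (adjusted p 0.0548 to 0.0807) and BMPR1A without K562 siCtrl replicate 1 or K562 siUSP15 replicate 1 (adjusted p 0.0693 and 0.057), and SKIL lost its KBM7 call without KBM7 siCtrl replicate 2 (adjusted p 0.0573). Without K562 siCtrl replicate 2, 1 of the list rose in K562, and the 4 that rose in KBM7 became 2 without KBM7 siCtrl replicate 2, KBM7 siUSP15 replicate 1 or KBM7 siUSP15 replicate 2. Of 35 tested genes of NF-κB signaling, 10 rose and 4 fell in KBM7 and 6 rose and 1 fell in K562, and TNFRSF1B, a receptor of TNF, and ICAM1, an adhesion molecule, rose in both. The K562 call of TNFRSF1B was lost without KBM7 siCtrl replicates 1 or 2, K562 siCtrl replicates 2, 3 or 4 or K562 siUSP15 replicates 1 or 3 (adjusted p 0.0563 to 0.168), and ICAM1 lost its KBM7 call without KBM7 siCtrl replicates 1 or 2 or KBM7 siUSP15 replicate 2 (adjusted p 0.128 to 0.226). Without K562 siCtrl replicate 2, 3 of the list rose in K562. Of 24 immediate early and MAPK feedback genes, 2 rose and 8 fell in KBM7, at a median of -0.18, and 5 fell in K562. The KBM7 number that fell here was 5, 4 and 5 without KBM7 siCtrl replicate 1, KBM7 siCtrl replicate 2 or KBM7 siUSP15 replicate 2. EGR1, a factor induced by ERK, fell in both, from 22.1 and 24.2 to 13.6 and 11.5 CPM in KBM7 and from 124 and 126 to 105 and 97.97 and 104 and 112 to 75.2 and 85.5 CPM in the K562 sets. With set 2 alone, 2 JAK/STAT members, 1 PI3K member and 2 MAPK members fell in K562.

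Lists of DNA damage, cell division and housekeeping genes had median log2 fold changes between -0.058 and 0.031 in KBM7. Of all tested genes, 9.64% rose and 11.2% fell in KBM7, and 6.97% rose and 9.30% fell in K562. A count of members near these shares is not particular to its list, as for the ubiquitin-specific proteases in K562. Of 39 genes of the DNA damage response, 5 rose and 1 fell in KBM7 and 1 rose in K562, and the difference was higher in KBM7 for 4, where 9.64% of all tested genes rose in KBM7 and 7.94% had the higher response there. Without KBM7 siCtrl replicate 1, siCtrl replicate 2, siUSP15 replicate 1 or siUSP15 replicate 2, 3, 1, 3 and 2 rose in KBM7, and the difference was higher for at most 2. It was higher for 1 without K562 siCtrl replicate 2 or K562 siUSP15 replicate 1. RAD51D, which acts in recombination, had 0.48 in KBM7 and 0.13 in K562, with a difference of 0.35 (adjusted p = 0.0165) that was lost without KBM7 siCtrl replicate 2 or KBM7 siUSP15 replicates 1 or 2 (adjusted p 0.0538 to 0.137). Of 44 genes of DNA replication and mitosis, 4 rose and 2 fell in KBM7 and 4 rose and 8 fell in K562. The difference was higher in KBM7 for 7 and lower for 2, against 7.94% and 8.03% of all tested genes, and 6 of the 7 are among the 18 mitosis genes. Without KBM7 siCtrl replicate 2 it was higher for 4, and without any 1 KBM7 library at most 1 of the 44 rose in KBM7. CDK1, the kinase that starts mitosis, had 0.14 in KBM7, -0.17 in K562 and a difference of 0.31 (adjusted p = 0.00208). Of 46 ubiquitin-specific proteases, 1 rose and 11 fell in KBM7 and 3 rose and 5 fell in K562. USP20 fell in both lines beside USP15, and USP24 was opposite, with -0.25 and 0.18. The KBM7 call of USP24 was lost without KBM7 siCtrl replicates 1 or 2 or KBM7 siUSP15 replicate 1 (adjusted p 0.0532 to 0.231) and its K562 call without K562 siCtrl replicate 1 or K562 siUSP15 replicate 1 (adjusted p 0.0752 and 0.0805). Without KBM7 siCtrl replicate 1, KBM7 siCtrl replicate 2 or KBM7 siUSP15 replicate 1, 5, 5 and 4 of the proteases fell in KBM7. Of 13 mitochondrially encoded genes, 2 rose in K562, where their median was 0.22 in set 1 and -0.012 in set 2. Their median difference was -0.20, or -0.002 without KBM7 siCtrl replicate 2. Their share of counts was 2.07% to 2.69% in KBM7, 4.84% to 5.43% in K562 set 1 and 3.21% to 3.27% in K562 set 2, and its part in the results was not tested. Of 78 ribosomal protein genes, 2 rose and 1 fell in KBM7 and 1 rose and 3 fell in K562, and their median difference was 0.047.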

How the data were processed

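RNA of 2 siCtrl and 2 siUSP15 libraries of KBM7 and of 4 and 4 of K562 was compared. The authors deposited raw counts per Ensembl gene and library, not pooled. The submitters' processing notes name TopHat2 2.1.0, hg38, HTSeq, edgeR and limma, and the paper names Itreecount and DEGseq. The deposited tables also hold log2 CPM, fold changes and p-values of the authors' own comparisons, which were not used. A name of the K562 table speaks of batch correction, but no source names batches. Gene symbols that a spreadsheet had turned into dates in the K562 table (23) were taken from the KBM7 table by gene identifier.

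Counts of genes in both tables were filtered with filterByExpr, scaled by TMM and fitted with edgeR 4.0.16 in R 4.3.3 (glmQLFit, glmQLFTest, 2-sided) over 4 groups plus the K562 set. CPM in the text use TMM factors, and log2 CPM a prior count of 2. Alike means adjusted p under 0.05 in both lines with 1 sign, and opposite means adjusted p under 0.05 in both lines and in the difference with opposite signs. Depth was 23020401 to 43566543 counts. No libraries were copies of each other. The fit was tested on simulated data.

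A few genes are not reported here by name. The members and gene lists were chosen with earlier results of these data known. Named were USP15, USP4 and USP11, then, with at least 1 log2 CPM in each line and no overlap between siRNAs (in K562 within each set), 6 genes per direction moving alike and 6 per direction moving oppositely by the smaller response, 8 per direction by the size of the difference (1 log2 CPM in 1 line sufficing, overlap judged where the response was larger), 4 per direction led by K562, and per list the 3 members with the lowest p of the difference if it passed. Other list members are named by role or were singled out after their values were seen, as were GATA1, DTX3L, HMGCS1 and FASN.

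Same-numbered K562 libraries correlated at 0.426 to 0.531 in their deviations from group means, but only 2 of 4 best with their own number, and at 0.013 and 0.042 once the sets were taken out. KBM7 pairs correlated at 0.0159. Alternatives were RLE factors, other filters, no block, replicate numbers as the block, each K562 set alone, each library left out (a lone library then is assumed to vary like the others), DESeq2 1.42.0, limma-voom (limma 3.58.1), each line on its own, and a GC adjustment from annotated transcripts. Promoters are from RefSeq (GRCh38.p14). Python 3.11.15, pandas 2.3.3, scipy 1.17.1 and matplotlib 3.10.9 were used.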

Additional observations from a re-analysis of the deposited data

Results flagged for a closer look

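In 5 of the 180 groups of 4 K562 libraries checked, 1 library lay farther from the rest than Dixon's 95% limit allows. In siCtrl these were replicate 1 for INHBA (0.304 CPM) and for AQP2 (0.217 CPM), replicate 4 for IER3 (24.2 CPM) and replicate 2 for BRCA1 (146.6 CPM), and in siUSP15 replicate 4 for RP3-368A4.5 (4.37 CPM). Dixon's limit assumes libraries of 1 kind, for which chance gives about 1 in 20 groups. Each group here mixes both K562 sets, so that rate does not apply to the count.

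For 77 of the 90 named genes the response in KBM7 differed from that in K562 by edgeR's test of the interaction, and the differences are given on the log2 scale as KBM7 minus K562. Apart from USP4, these 77 genes were named by rules that require this difference to pass, so the count was fixed in advance. Of all 15833 tested genes, the difference passed for 2529 (16%). Among genes named as opposite, those higher in KBM7 were ABCA5 at 1.42, FYB at 1.64, PCYOX1L at 1.08, FAM129A at 1.79, SNX10 at 1.21 and TRIM6 at 1.01. Those lower in KBM7 were CALB1 at -1.997, RP11-104N10.2 at -1.73, NPPA-AS1 at -1.60, LINC01088 at -1.26, HPGD at -1.38 and S100A4 at -1.55. Among the largest differences, the response in KBM7 was higher for MEIOB at 5.13, ITGA2 at 4.79, EPSTI1 at 3.54, INHBA at 3.37, BATF2 at 3.14, ZNF253 at 3.04, GRID1 at 2.85 and FCGR2B at 2.71, and lower for HBBP1 at -7.78, RHD at -6.26, LIPH at -5.49, AQP2 at -4.28, UCA1 at -4.00, COL6A5 at -3.74, HBE1 at -3.05 and MS4A2 at -2.98. The fitted values of MEIOB, ITGA2, HBBP1 and RHD depend on the prior count, as 1 group of each was at 0 counts in all its libraries. Against a floor of 3 counts over the group, MEIOB was at least 2.75-fold higher with siUSP15 in KBM7, ITGA2 at least 3.61-fold lower in K562, HBBP1 at least 19.4-fold lower in KBM7 and RHD at least 7.77-fold lower in KBM7. The calls of MEIOB, ZNF253, GRID1 and COL6A5 did not hold with each KBM7 library left out in turn. In the fits without a call their differences were 4.85 to 5.13, 2.06 and 2.46, 2.27 to 3.25, and -3.18 and -2.77. With set 2 alone as the K562 libraries, the differences of EPSTI1 (adjusted p = 0.457) and MS4A2 (adjusted p = 0.125) did not pass, nor did those of INHBA and AQP2. Among genes named for a K562 response without a KBM7 response, the difference was above 0 for TMEM156 at 1.57, PROCR at 1.51, KIF21B at 0.96 and ZC3H6 at 0.65, which fell in K562, and below 0 for ACSS1 at -1.13, ZNF850 at -0.75, RP3-368A4.5 at -0.94 and PRDM11 at -0.72, which rose in K562. The ZC3H6 call was lost without K562 siCtrl replicates 1, 2 or 4 or K562 siUSP15 replicates 2 or 3 (adjusted p 0.0516 to 0.0978). Nor did the calls of ZC3H6, PRDM11 and KIF21B hold with each KBM7 library left out in turn. Their differences were then 0.56 to 0.74, -0.73 to -0.71 and 0.89. With set 2 alone TMEM156 (adjusted p = 0.0577) and ZC3H6 (adjusted p = 0.309) did not pass. Among genes named from the lists, with USP4, the difference was above 0 for USP4 at 0.34, BST2 at 0.76, B2M at 0.60, MPO at 3.91, SPI1 at 0.76, PSAT1 at 1.08, WARS at 1.08, ASNS at 0.99, IL10RA at 2.15, STAT6 at 0.43, TNFAIP3 at 0.71, NFKBIE at 0.63, PIK3R1 at 0.52, CDKN1A at 0.68, ETV4 at 0.46, RAD51D at 0.35, BRCA1 at 0.22, CDK1 at 0.31, CENPE at 0.32, USP40 at 0.49, RPS12 at 0.21, ZNF83 at 0.62, ZNF558 at 0.55 and ZNF441 at 0.71. It was below 0 for ANK1 at -2.58, SPTB at -2.02, MS4A3 at -0.95, MANF at -0.44, HSPA5 at -0.18, LSS at -0.68, DHCR7 at -0.69, FADS2 at -0.59, PIM2 at -0.48, IER3 at -1.28, GAB1 at -1.58, PIK3R3 at -0.77, ID2 at -0.94, PHLDA1 at -0.75, EGR1 at -0.52, USP24 at -0.43 and MT-ND6 at -0.59. The BRCA1 call was lost without K562 siCtrl replicate 2 or K562 siUSP15 replicates 1 or 3 (adjusted p 0.0514 to 0.0694). RPS12 lost its call without K562 siCtrl replicates 2 or 4 or K562 siUSP15 replicate 3 (adjusted p 0.0515 to 0.0536). Nor did the calls of BRCA1, RPS12 and MT-ND6 hold with each KBM7 library left out in turn. Their differences were then 0.17 and 0.18, 0.18 to 0.24, and -0.54 and -0.415.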

How the results depend on the processing

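RLE size factors, the other filters on low counts, DESeq2, limma-voom, each line fitted on its own and the GC adjustment (chosen after seeing the data) left every count within 1.5 times. DESeq2 called 2316 differences, 398 alike and 262 opposite genes, of which 2242, 373 and 240 were shared with edgeR. Without the replicate block, 577 genes passed in KBM7, 4 in K562 and 268 in the difference (114 higher, 154 lower), 1 gene was alike and 0 were opposite with edgeR (202 at unadjusted p under 0.05). With the replicate number as the block, 1687 passed in K562, 269 were alike and 162 opposite, and TRIM6 in KBM7 (adjusted p = 0.0621) and the differences of ZNF253, PRDM11, ZC3H6, HSPA5, BRCA1 and RPS12 (adjusted p = 0.053 to 0.104) lost their calls. With set 1 alone, 4670 passed in K562, 920 were alike, 666 opposite and 3998 differed (2147 lower). With set 2 alone, 253 passed in K562, 82 were alike and 54 opposite. The cause was not tested.

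With 1 library left out, 1606 to 3880 genes passed in KBM7 and 1266 to 3036 in K562, 225 to 498 were alike, 139 to 371 opposite, and 1326 to 2786 differed (621 to 1351 higher, 705 to 1435 lower). The lowest KBM7 count was without KBM7 siUSP15 replicate 1 and the lowest K562 count without K562 siCtrl replicate 2. KBM7 siCtrl replicate 1, KBM7 siCtrl replicate 2, K562 siCtrl replicate 1, K562 siUSP15 replicate 1 and K562 siUSP15 replicate 2 also moved a count by over 1.5 times, with 1827 and 1737 passing in KBM7 and 1389, 1550 and 1642 in K562. Reversed were the differences of YES1 (-0.35) and CD52 (-0.51) with set 2 alone and of MTURN (0.38) and PIK3CB (0.20) with set 1 alone, each past the threshold there. With the other set alone the difference of each of these genes passed with the sign of the full fit. Over all named genes, 3077 of the alternative values kept direction and side of the threshold, 254 lost the call and 8 gained it. Low levels limit what is measured of interferon and myeloid genes in K562 and of erythroid genes in KBM7, many of them under 1 log2 CPM.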

Other observations

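Genes of high GC content had lower responses in KBM7 than in K562. With the tested genes in 5 equal bins by the GC content of their transcripts, the median difference was 0.040 in the lowest bin (26.7% to 42.2% GC) and -0.074 in the highest (58.7% to 76.0% GC). In the lowest bin the difference was higher in KBM7 for 333 genes and lower for 202, and in the highest for 162 and 389. The median GC content was 47.0% for genes with the higher response in KBM7, 53.1% for those with the lower and 49.5% over all. With GC-adjusted offsets 2640 differences passed, 468 genes were alike and 331 opposite, and 2301, 397 and 258 of these were shared with the fit without them.

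By chromosome, the share of tested genes with the higher response in KBM7 ran from 4.34% on chromosome 22 to 11.2% on chromosome 4. The share with the lower response ran from 5.99% on chromosome 18 to 11.3% on chromosome 22. Chromosome 19 had 68 genes higher and 122 lower of 1201 tested.

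NF-κB genes beyond those above differed singly. NFKB1, which encodes the p50 subunit, stood at 87.9 and 83.5 CPM with siCtrl and 75.01 and 86.2 CPM with siUSP15 in KBM7, and in K562 at 28.2 and 28.5 CPM with siCtrl and 43.2 and 48.3 CPM with siUSP15 in set 1 and at 48.4 and 50.2 CPM with siCtrl and 55.96 and 50.1 CPM with siUSP15 in set 2, where it overlapped. Its log2 fold change was -0.090 in KBM7 and 0.39 in K562 (adjusted p = 0.00739), and the difference of -0.48 (adjusted p = 0.0332) was lost without KBM7 siCtrl replicates 1 or 2, KBM7 siUSP15 replicate 1, K562 siCtrl replicates 1 or 2 or K562 siUSP15 replicate 1 (adjusted p 0.0589 to 0.182). ENG, a co-receptor of TGF-β, stood at 168 and 170 CPM with siCtrl and 170 and 161 CPM with siUSP15 in KBM7 and at most at 1.44 CPM in K562. The KBM7 response of -0.028 and the K562 response of -1.28 differed by 1.26 (adjusted p = 0.00521).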
